A study of Arabidopsis thaliana with 8 samples.

Results

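Seedlings of Arabidopsis thaliana kept at 27 °C were compared with seedlings kept at 22 °C on day 7 after sowing, in libraries of 2 hybrids. The comparison used 4 of the 8 libraries, chosen by their labels: the C24xCol hybrid (here the Col hybrid) and the C24xpif4-101 hybrid (here the pif4 hybrid), each with 1 library at 22 °C and 1 at 27 °C, so that each hybrid gave a matched pair. All 4 shared stratification on MS medium in the cold and dark for 3 days, germination for 1 day at 22 °C, an 8 h light and 16 h dark cycle, and harvest as whole seedlings at Zeitgeber time 0, the moment at which the lights come on. The pif4 hybrid takes its mutant pif4-101 allele from 1 parent and should also carry the C24 copy of PIF4. Each library came from pooled seedlings of about 30 mg, and nothing in the labels describes a second culture of any condition. The p-values therefore do not measure the spread between repeat cultures. They rest mostly on a spread shared across genes, and the 2 pairs of pooled samples also differ in hybrid.

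Plants held a few degrees above their usual temperature lengthen their stems and petioles and raise their leaves, a set of responses called thermomorphogenesis. The bHLH transcription factor PIF4 is a central activator of it and acts largely through auxin and brassinosteroid genes, while phytochrome B, ELF3 of the evening complex of the circadian clock, and HY5 restrain PIF4 or its targets. Heat shock factors act beside that pathway: they bind inverted repeats of GAA and TTC in the promoters of chaperone genes, which keep unfolding proteins soluble.

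The 4 libraries held 11711681, 25440561, 17884174 and 11125696 counts in the order Col hybrid at 22 °C, Col hybrid at 27 °C, pif4 hybrid at 22 °C and pif4 hybrid at 27 °C. Depth was thus higher at 27 °C in the Col hybrid pair (log2 ratio 1.12) and lower at 27 °C in the pif4 hybrid pair (log2 ratio -0.69). Levels below are in CPM, counts relative to a library's total after TMM scaling, and 3 counts correspond to 0.108 to 0.273 CPM. In a principal component analysis of the 4 libraries the first component held 79.4% of the variance and separated the temperatures, and the second held 13.2% and separated the hybrids. The targeted gene was read in every library: PIF4 stood at 75.1 and 191.7 CPM in the Col hybrid and at 64.4 and 162 CPM in the pif4 hybrid, at 22 and 27 °C. It therefore does not separate the hybrids, and the level over the whole gene cannot show which parental copy was read. The labels name a stranded and an unstranded library kit without saying which library had which, so reads of overlapping genes on opposite strands cannot be told apart. Such an overlap on the opposite strand holds for 34 of the 160 genes selected by rule, and an overlap on either strand for 39. Those with one on the opposite strand include HSP17.4, Hop3, HSFA3, MBF1C, ELF3, XTH15, CKX5, EBF2, THA1, BCAT-2, MGL, DIN10, TT4, CHLI2, Lhca5, PCNA2, SYP111, POLAR, RR3, bHLH38 and NRT1.8. Genes named after their values were seen are outside these counts, and PCL1, HSP101, CAB1 and ASN1 among them also have one.

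About as many genes were called up as down. TMM scaling takes most genes as unchanged, so this balance is largely set by the scaling. Of 20375 genes tested, 5040 rose and 5168 fell at an adjusted p under 0.05 (edgeR quasi-likelihood test with hybrid as block), which is 24.7% and 25.4% of the genes tested. At least a 2-fold change was seen for 897 genes that rose (4.4%) and 948 that fell (4.65%), and at least a 4-fold change for 123 and 112. The median size of change among called genes was 0.60 on the log2 scale, so most calls were of small changes. Counts of list members that rose or fell, given below, are to be read beside the 24.7% and 25.4% over all genes tested. The 4 libraries leave 1 residual degree of freedom, and the p-values therefore lean on a spread shared across genes.

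Because depth ran in opposite directions in the pairs, each pair was also read alone. The warm-to-cool log2 ratio had the same sign in both pairs for 17065 genes (83.8%), and across genes the ratios of the pairs, which share no library, had a Pearson r of 0.821 and a Spearman rho of 0.82, as a description over genes that are not independent. Only 13 genes were called with opposite signs in the pairs. The test fits 1 change for both pairs, so opposite ratios cancel and such calls are rare by design. In both pairs alike 494 genes were at least 2-fold higher and 537 at least 2-fold lower. In 5 genes the pairs lay more than 1 log2 unit to opposite sides (BETA-TIP, AT1G72070, CSLB02, AT4G11210 and AT5G08250). None of them passed the test, which could hardly call them for the same reason. When genes were split by abundance into 10 equal classes, the median ratio of each pair lay within 0.071 of 0 in all but the highest class, where it was -0.23 for the Col hybrid pair and -0.04 for the pif4 hybrid pair. Over the 100 most abundant genes it was -0.77 and 0.06. The pairs therefore differ in the most abundant transcripts, and this matters for the photosynthesis genes described below.

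Fits that leave out 1 of the 4 libraries used the libraries of both ages, and with all 8 libraries that fit called 3590 genes that rose and 3692 that fell. Without the Col hybrid at 22 °C 1302 genes rose and 1497 fell, without the Col hybrid at 27 °C 1108 and 1184, without the pif4 hybrid at 22 °C 1428 and 1558, and without the pif4 hybrid at 27 °C 3200 and 3168. Counts under these 4 fits are given below as left-out counts, always in that order of libraries. In every list other than the small heat shock and jasmonate inactivation lists, the count of genes that rose or that fell in the fit on 4 libraries moved by over 1.5 times in at least 1 of these fits, a shift that includes the change of fit.

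**Figure D1:**
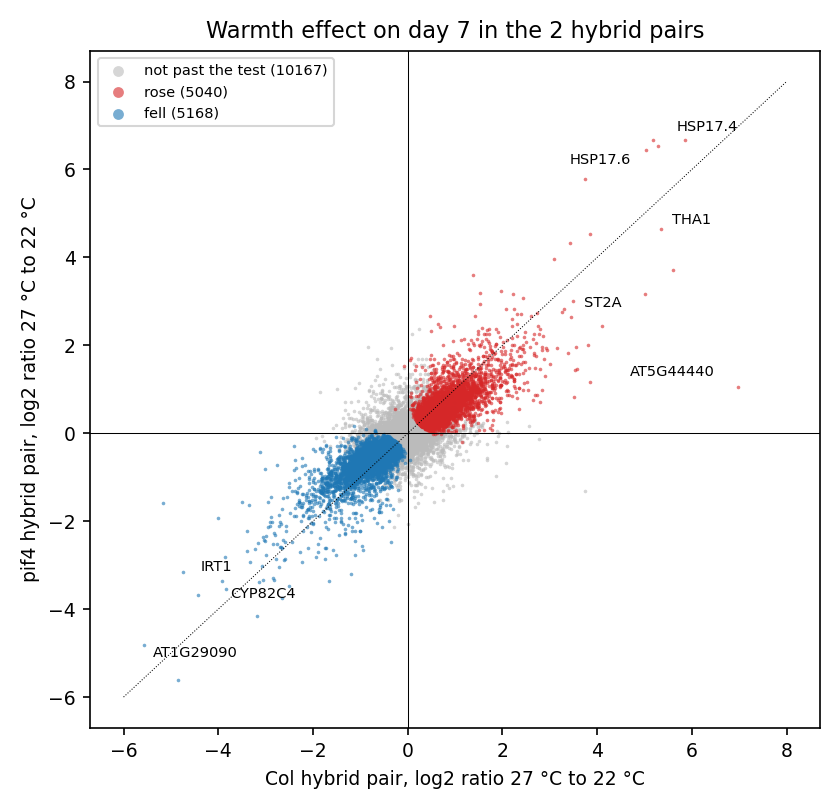
Each point is 1 of the 20375 genes tested, placed by its warm-to-cool log2 ratio for the Col hybrid (horizontal) and the pif4 hybrid (vertical). Red genes rose and blue genes fell, the dotted line marks equal ratios, and AT5G44440 lies far to the right because its change was much larger in the Col hybrid.

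The promoters of 3 heat shock genes whose levels are described next are shown first, because they hold the sequence that heat shock factors recognise. The motif searched was GAA, any 2 bases, TTC, any 2 bases, GAA (GAANNTTCNNGAA), or the same with TTC first (TTCNNGAANNTTC), on both strands. Capitals mark the matches in the 250 bases before each annotated start, read from the TAIR10.1 genome.
HSP17.4 promoter, chr3:16984868-16985117, minus strand: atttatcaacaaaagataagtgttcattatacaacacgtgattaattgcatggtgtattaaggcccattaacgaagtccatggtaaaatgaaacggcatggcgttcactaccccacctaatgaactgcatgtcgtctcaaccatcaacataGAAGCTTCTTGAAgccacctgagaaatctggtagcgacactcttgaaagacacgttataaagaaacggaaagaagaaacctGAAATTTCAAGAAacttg
AT1G53540 promoter, chr1:19980049-19980298, plus strand: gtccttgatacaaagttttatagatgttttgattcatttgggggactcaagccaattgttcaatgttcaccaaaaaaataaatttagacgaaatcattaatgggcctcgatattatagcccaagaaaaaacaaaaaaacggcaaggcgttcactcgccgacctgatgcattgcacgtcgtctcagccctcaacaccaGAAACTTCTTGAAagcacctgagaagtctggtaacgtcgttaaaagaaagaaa
HSFA2 promoter, chr2:11135374-11135623, plus strand: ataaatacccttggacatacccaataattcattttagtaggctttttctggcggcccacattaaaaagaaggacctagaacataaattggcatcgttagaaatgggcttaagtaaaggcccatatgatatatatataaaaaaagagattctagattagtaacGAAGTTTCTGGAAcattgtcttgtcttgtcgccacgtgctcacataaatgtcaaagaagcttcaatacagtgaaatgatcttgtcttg
This motif was found in 106 of 27443 promoters (0.386%), and in 82 of the 19707 promoters of genes tested (0.416%). It was present in 11 of the 781 promoters read for genes that rose at least 2-fold (1.41%) and in 3 of 917 for genes that fell at least 2-fold (0.327%). Among genes that rose at least 4-fold it was present in 4 of 94 (4.26%), and among those that fell at least 4-fold in 0 of 108. The 3 genes printed above, shown because they hold the motif, are counted in the 11 and in the 4. HSP17.4 holds 2 matches, which begin 99 and 18 bases before the start. A match describes letters in this window and not a bound site.

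Small heat shock proteins, which hold unfolding proteins in a soluble state, had the highest median change of the 49 gene lists. Of 5 tested, 4 rose and none fell, and the same 4 were called under every left-out fit. All 4 lay below the filter of 0.676 CPM in both 22 °C libraries and were tested only through their 27 °C levels. Their direction was thus fixed by the filter, and the count and list median only describe their levels. HSP17.4 (AT3G46230) was at 0.0902 CPM at 22 °C and 12.04 CPM at 27 °C in the Col hybrid, and at 0.114 and 23.7 CPM in the pif4 hybrid. These are 1 and 333 counts in the first pair and 2 and 261 in the second, so the ratios of 133 (95% counting interval 23.8 to 5280) and 208 (56.9 to 1720) are loosely fixed (adjusted p = 1.1e-16 in the fit). HSP17.6 (AT5G12030) went from 0.271 to 15.0 CPM and from 0.286 to 37.6 CPM, a fitted log2 fold change of 6.63 (SE 0.26, adjusted p = 5.22e-18). Its Col hybrid ratio of 55.3 (95% counting interval 18.8 to 269) rests on 3 counts at 22 °C. For both genes the 27 °C libraries stood far above the 22 °C libraries, and the pif4 hybrid had the higher level at 27 °C. The fitted value of HSP17.6 was 5.88 without the pif4 hybrid at 22 °C and 5.71 without the pif4 hybrid at 27 °C.

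The other small heat shock genes started from nothing or did not move. HSP17.6II (AT5G12020) had no count in either 22 °C library and stood at 4.19 and 12.1 CPM at 27 °C, which is at least 15.5-fold and 70.5-fold higher against a floor of 3 counts per library. The DESeq2 test did not call it (adjusted p = 0.101). HSP23.6-MITO, a mitochondrial member, was likewise at 0 at 22 °C and at 1.16 and 2.27 CPM at 27 °C, at least 4.27-fold and 13.3-fold higher. HSP18.2 did not pass (log2 fold change -0.29, adjusted p = 0.35), and the remaining 2 of 7 list members were too low to test. The DESeq2 test called 2 members of the list as risen, and HSP23.6-MITO was not among them. The median log2 fold change of the 5 tested was 7.41, or 5.05 with HSP17.6II and HSP23.6-MITO set at their bounds, beside -0.004 over all genes tested. Among 27 other loci of the same HSP20-like family 6 rose and 7 fell (median -0.12). AT1G53540 went from 0.0902 to 6.69 CPM and from 0.0571 to 15.3 CPM, and its ratios of 74.1 (13.1 to 2940) and 267 (47.3 to 10600) rest on 1 count in each 22 °C library. AT1G53540 too was tested only through its 27 °C levels. AT1G07400 rose from 2.17 to 5.78 CPM and from 1.43 to 18.6 CPM (log2 fold change 2.80, SE 0.29), and the value was 1.60 without either pif4 hybrid library and 3.55 without the Col hybrid at 22 °C. Members of this family are close in sequence, and how the counting treated shared reads is not given in the sources used here.

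Among the large chaperones the changes were split. Of 24 HSP70, HSP90 and HSP100 genes tested 11 rose and 4 fell (median 0.08; left-out counts of genes that rose 9, 7, 7 and 10). HSP90.1 (AT5G52640), the heat-induced cytosolic HSP90, rose from 6.86 to 46.2 CPM in the Col hybrid and from 8.40 to 56.8 CPM in the pif4 hybrid, which is 6.75-fold (log2 fold change 2.75, SE 0.12, adjusted p = 1.7e-17). HSP70 (AT3G12580), a heat-induced cytosolic HSP70, rose from 16.4 to 81.7 CPM and from 16.2 to 106.9 CPM, 5.78-fold (adjusted p = 3.97e-17). Hop3, a co-chaperone that links HSP70 and HSP90, rose from 9.29 to 35.0 CPM and from 11.02 to 36.0 CPM. HSP101, the disaggregase needed for acquired thermotolerance, named like HSC70-1 after the values were seen, rose from 9.65 to 19.7 CPM and from 7.65 to 23.8 CPM. In each of these 4 genes both 27 °C libraries were above both 22 °C libraries. The 4 that fell were BIP2, of the endoplasmic reticulum, and CR88, CLPB3 and cpHsc70-2, which work in the chloroplast. Most calls of a fall in this list were lost in the left-out fits, except without the pif4 hybrid at 27 °C. HSC70-1, the abundant constitutive HSP70, did not pass (2304 and 1382 CPM in the Col hybrid, 1856 and 1783 CPM in the pif4 hybrid).

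Of 22 heat shock factors and co-regulators tested 15 rose and 1 fell (median 0.45). The left-out counts of genes that rose were 5, 6, 5 and 8. HSFA2, an amplifier of the heat response, also chosen after its values were seen, rose from 0.361 to 1.301 CPM and from 0.457 to 2.36 CPM (log2 fold change 2.17, SE 0.43), but it was called in only 2 of the 4 left-out fits (adjusted p = 0.0796 without the pif4 hybrid at 22 °C). HSFA3, which acts below DREB2A, rose from 3.16 to 9.69 CPM and from 2.46 to 7.72 CPM (log2 fold change 1.63, SE 0.21). MBF1C, a co-activator of thermotolerance, rose from 31.5 to 56.0 CPM and from 36.0 to 87.6 CPM (1.07, SE 0.11, and 0.68 without the pif4 hybrid at 27 °C). HSA32, which extends the memory of heat, rose from 18.9 to 34.8 CPM and from 24.1 to 47.2 CPM. The heat shock element stood in 4 of the 27 promoters of this list (14.8%) and in 1 of 7 of the small heat shock proteins. It stood in 0 of 26 promoters of the HSP70, HSP90 and HSP100 list, which holds HSP90.1, HSP70 and HSP101, and in 1 of 29 of the other HSP20-like loci. Cold response genes had no common direction, with 3 of 15 that rose and 7 that fell (median 0.00). COR413IM1, a cold-regulated protein of the inner chloroplast envelope, rose from 19.8 to 67.4 CPM and from 11.6 to 43.6 CPM, while the cold-induced KIN2 fell from 77.04 to 41.7 CPM and from 85.8 to 50.6 CPM, a call lost in 2 of the 4 left-out fits (adjusted p up to 0.158, without the pif4 hybrid at 22 °C).

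**Figure D2:**
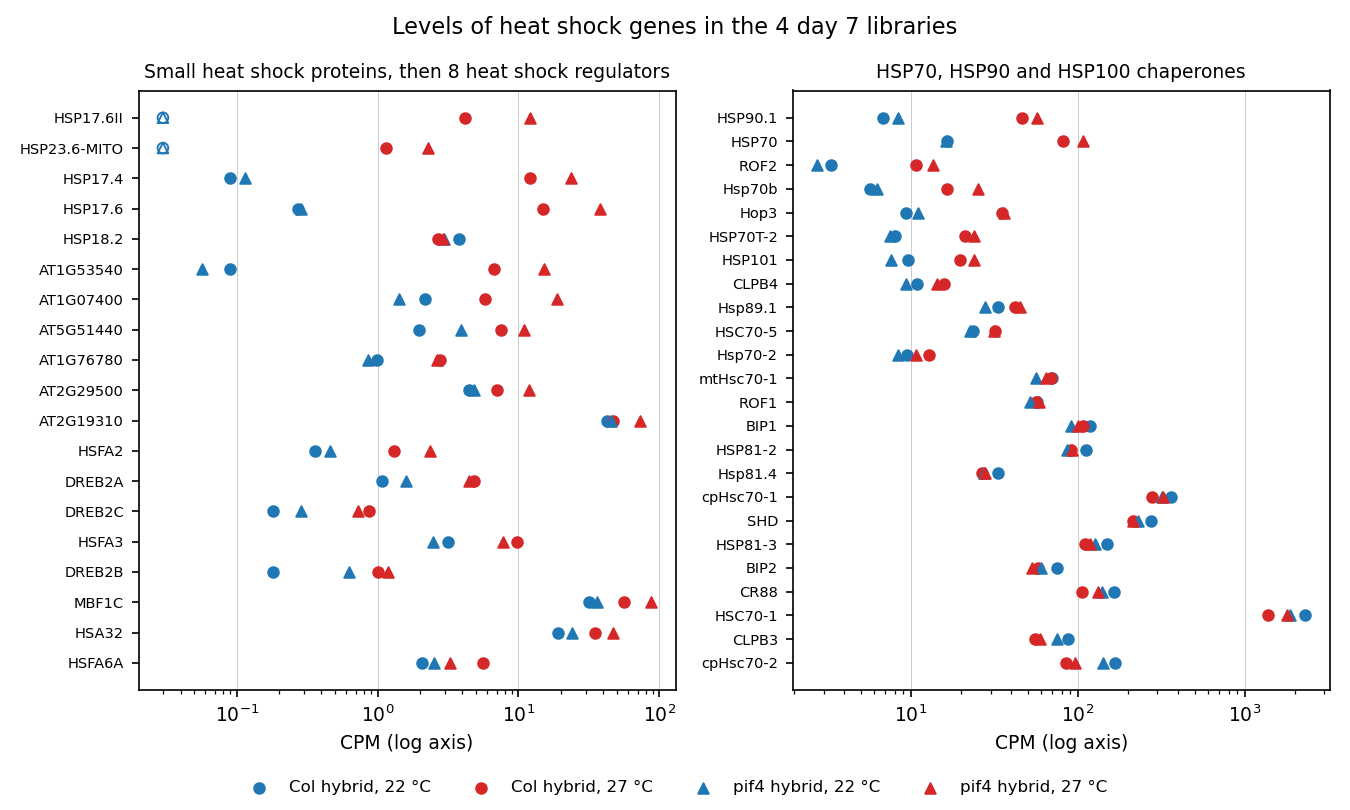
Levels in CPM on a log axis in each of the 4 libraries, with circles for the Col hybrid, triangles for the pif4 hybrid, blue for 22 °C and red for 27 °C. Open marks at 0.03 CPM stand for a level of 0. The left panel holds small heat shock proteins, related HSP20-like loci and 8 regulators, and the right panel the large chaperones, where HSP90.1 and HSP70 lie well to the right at 27 °C and HSC70-1 does not.

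All 8 genes of the PIF family passed the test, 6 upward and 2 downward (median 0.53). PIF4 rose from 75.1 to 191.7 CPM in the Col hybrid and from 64.4 to 162 CPM in the pif4 hybrid (log2 fold change 1.34, SE 0.12, adjusted p = 4.04e-10). PIF3 rose from 9.83 to 30.8 CPM and from 10.3 to 26.53 CPM (1.5, SE 0.12), and PIL1 from 9.83 to 17.5 CPM and from 6.57 to 12.3 CPM. PIL6, also known as PIF5, rose by a log2 fold change of 0.52, PIL2 by 0.53 and PIL5 by 0.33. UNE10 fell from 26.7 to 11.1 CPM and from 26.9 to 13.9 CPM, and PIF7, itself a driver of warmth and shade responses, fell from 10.1 to 6.43 CPM and from 11.8 to 7.36 CPM. The left-out counts of genes that rose were 3, 3, 3 and 4. PIL2, PIL5 and PIF7 were called in none of the 4 left-out fits, with adjusted p up to 0.332 for PIL2 and 0.1 for PIF7, and PIL6 in 1.

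Genes that PIFs induce in shade and warmth mostly rose: 14 of 23 tested, against 2 that fell (median 0.57; left-out counts of genes that rose 6, 10, 8 and 7). XTH15, which loosens the cell wall by cutting and rejoining xyloglucan, rose from 27.1 to 152.7 CPM and from 21.1 to 65.4 CPM (log2 fold change 2.07, SE 0.13). CKX5, a cytokinin oxidase, rose from 3.25 to 20.02 CPM and from 3.03 to 12.2 CPM (2.31, SE 0.18). HB-2, the shade marker ATHB2, rose from 84.3 to 141.2 CPM and from 66.3 to 116.3 CPM (0.78, SE 0.11). In these 3 genes the lowest 27 °C library stood above the highest 22 °C library. STH, a B-box gene counted in this list, fell from 107.6 to 46.4 CPM and from 106.8 to 58.0 CPM.

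The auxin genes often used to mark thermomorphogenesis changed by less than 2-fold. YUC8, an auxin biosynthesis enzyme, rose from 7.94 to 12.5 CPM and from 6.68 to 9.54 CPM (log2 fold change 0.59, SE 0.16, adjusted p = 0.00319), and the call was lost in all 4 left-out fits (adjusted p up to 0.232, without the Col hybrid at 22 °C). IAA19 rose by 0.48 (SE 0.14), from 12.7 to 17.1 CPM and from 9.77 to 14.2 CPM, and was lost in 3 of the 4 left-out fits, with a value of 0.04 without the pif4 hybrid at 27 °C and 0.13 without the Col hybrid at 22 °C. IAA29 rose by 0.64 (SE 0.10) and was likewise lost in 3 (0.39 without the pif4 hybrid at 27 °C). Of 7 auxin synthesis genes tested 1 rose and 2 fell (median -0.32). Of 25 Aux/IAA repressors tested 5 rose and 7 fell (median -0.04; left-out counts of genes that rose 0, 2, 0 and 0). These Aux/IAA counts are near the share over all genes tested, of which 24.7% rose and 25.4% fell. At least 2-fold, 2 of the Aux/IAA genes rose and 1 fell. IAA28, which acts in roots, fell from 43.6 to 18.6 CPM and from 52.4 to 28.0 CPM, and IAA17 fell from 109.2 to 52.6 CPM and from 108.5 to 64.2 CPM. Of 7 auxin inactivation genes tested 3 rose, led by GH3.5, which conjugates auxin to amino acids and rose from 50.4 to 127.0 CPM and from 41.4 to 89.9 CPM (1.23, SE 0.10).

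SAUR genes, small auxin-induced genes that activate the proton pump during elongation, fell more often than they rose: 26 of 57 tested fell and 5 rose (median -0.38). The left-out counts of genes that fell were 12, 4, 7 and 23. SAUR57 rose from 5.59 to 19.6 CPM and from 6.23 to 23.0 CPM. SAUR14 fell from 48.7 to 16.2 CPM and from 54.8 to 30.3 CPM (log2 fold change -1.23, and -0.78 without the Col hybrid at 27 °C), and SAUR6 fell by 1.01 on that scale. Wall-loosening families were mixed, with 6 of 26 XTH genes that rose and 8 that fell, and 6 of 21 expansins that rose and 7 that fell. XTH17 rose from 22.3 to 49.5 CPM and from 14.4 to 46.5 CPM (1.41, and 0.94 without the pif4 hybrid at 27 °C). EXPA10, an expansin of leaves and stems, fell from 21.1 to 6.87 CPM and from 23.4 to 12.4 CPM.

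Among other growth hormones, ethylene and brassinosteroid genes moved upward and cytokinin response genes downward. Of 20 ethylene genes tested 11 rose and 2 fell (median 0.48; left-out counts of genes that rose 4, 4, 6 and 10). EIN2, the central transducer of the ethylene signal, rose from 69.1 to 150.1 CPM and from 60.4 to 111.4 CPM (log2 fold change 1.00, SE 0.11). EBF2, which marks EIN3 for breakdown, rose from 65.2 to 167.7 CPM and from 60.2 to 119.5 CPM, and the receptor gene ERS2 from 7.22 to 18.9 CPM and from 6.23 to 13.4 CPM. Of 16 brassinosteroid genes 8 rose and 1 fell (left-out counts of genes that rose 2, 4, 3 and 6), with the receptor gene BRI1 at 101.0 and 196.6 CPM in the Col hybrid and 86.5 and 156.6 CPM in the pif4 hybrid. Of 14 cytokinin oxidases and type-A response regulators 8 fell and 1, CKX5, rose (median -0.73; left-out counts of genes that fell 6, 3, 7 and 7). ARR7, an early cytokinin-induced repressor of its own pathway, fell from 16.0 to 3.69 CPM and from 17.5 to 8.00 CPM, and RR3 from 76.8 to 33.1 CPM and from 84.8 to 45.1 CPM.

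Most of the listed PRR, GI and evening complex genes of the clock rose at this dawn harvest. The evening element, AAAATATCT on either strand, is the sequence through which the morning proteins CCA1 and LHY repress evening genes, and the promoters of 3 genes that hold it are shown. Capitals mark the match in the 250 bases before each start, in TAIR10.1.
PRR5 promoter, chr5:8358547-8358796, minus strand: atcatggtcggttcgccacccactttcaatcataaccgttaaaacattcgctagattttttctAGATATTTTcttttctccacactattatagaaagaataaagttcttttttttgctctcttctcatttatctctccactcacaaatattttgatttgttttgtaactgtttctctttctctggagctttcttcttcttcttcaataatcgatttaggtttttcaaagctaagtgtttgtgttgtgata
TOC1 promoter, chr5:24674713-24674962, plus strand: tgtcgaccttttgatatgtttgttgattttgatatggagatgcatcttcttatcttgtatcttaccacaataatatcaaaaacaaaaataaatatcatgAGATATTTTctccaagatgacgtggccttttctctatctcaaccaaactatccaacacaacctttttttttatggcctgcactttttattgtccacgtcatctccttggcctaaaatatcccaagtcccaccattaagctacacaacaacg
PCL1 promoter, chr3:17182792-17183041, plus strand: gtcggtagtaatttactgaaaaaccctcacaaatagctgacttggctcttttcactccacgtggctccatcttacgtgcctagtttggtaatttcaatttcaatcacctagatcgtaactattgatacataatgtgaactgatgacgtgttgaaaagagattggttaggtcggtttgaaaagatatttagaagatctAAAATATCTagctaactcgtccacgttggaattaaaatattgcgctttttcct
The element stood in 6 of the 15 promoters of the PRR, GI and evening complex list (40%) and in 648 of all 27443 promoters (2.36%).

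Of 14 genes tested in that list 12 rose and 1 fell (TZP, from 62.3 to 38.1 CPM and from 61.7 to 40.6 CPM), with a median of 1.03 (1.24 in the Col hybrid pair and 0.92 in the pif4 hybrid pair) and left-out counts of genes that rose of 8, 8, 9 and 12. PRR7, a repressor of CCA1 and LHY, rose from 19.8 to 107.0 CPM and from 20.9 to 83.9 CPM (log2 fold change 2.21, SE 0.11, adjusted p = 8.88e-16). GI, which peaks late in the day, rose from 3.07 to 12.5 CPM and from 2.80 to 10.1 CPM (1.93, SE 0.20). ELF3, a scaffold of the evening complex and a temperature sensor, rose from 16.2 to 43.7 CPM and from 14.7 to 27.9 CPM (1.18, SE 0.12). The 27 °C libraries of all 3 genes were above both 22 °C libraries. The genes of the printed promoters, chosen after their values were seen, also rose: PRR5 from 0.631 to 2.53 CPM and from 0.571 to 2.27 CPM, TOC1 from 13.8 to 31.7 CPM and from 11.9 to 24.4 CPM, and PCL1 (LUX of the evening complex) from 10.9 to 21.1 CPM and from 11.2 to 20.8 CPM.

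Few morning clock genes passed, with 1 of 11 tested that rose and 3 that fell (median -0.37; left-out counts of genes that fell 1, 2, 2 and 5). LHY fell from 649.9 to 303.6 CPM and from 622.2 to 364.3 CPM (log2 fold change -0.94, SE 0.26, adjusted p = 0.00351), a call lost without the Col hybrid at 22 °C (adjusted p = 0.0812). CCA1 did not pass, at 383.1 and 266.5 CPM in the Col hybrid and 380.5 and 321.9 CPM in the pif4 hybrid (adjusted p = 0.127). RVE8, an activator of evening genes, fell from 165.4 to 98.8 CPM and from 177.6 to 115.4 CPM, and was lost without the Col hybrid at 22 °C (adjusted p = 0.0576). RVE7 rose from 42.9 to 95.9 CPM and from 52.1 to 90.8 CPM, and RVE2 fell in the main test and in 2 of the 4 left-out fits. In 23 flowering regulators tested 2 rose and 7 fell (median -0.25), which is 39.1% called beside 50.1% of all genes tested. FLC, the repressor that vernalization silences, did not pass (157.6 and 132.7 CPM, 174.5 and 147.0 CPM, adjusted p = 0.119).

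Light signalling genes were split, but no photoreceptor gene fell. PHYA, PHYC, PHYD, PHYE, CRY2, PHOT1 and UVR8 rose, and PHYB, CRY1 and PHOT2 did not pass. DET1 and SPA2 of the same list also rose. COP1, SPA1, SPA3, SPA4, HY5, HYH and the low-count members ELIP1 and ELIP2 fell. Of 20 photoreceptor, COP1, SPA and HY5 genes 9 rose and 8 fell (left-out counts of genes that rose 1, 3, 2 and 5 and of genes that fell 4, 3, 5 and 5), and of 19 B-box genes 3 rose and 9 fell. HYH, a close relative of HY5, fell from 63.1 to 18.3 CPM and from 83.7 to 24.1 CPM (log2 fold change -1.79, SE 0.10, adjusted p = 9.3e-15). HY5, which activates flavonoid and chlorophyll genes in light, fell from 33.9 to 20.8 CPM and from 39.8 to 25.2 CPM (-0.68, SE 0.10). BBX30 fell from 7.40 to 1.12 CPM and from 10.2 to 1.73 CPM (-2.64, SE 0.24). In all 3 the highest 27 °C library stood below the lowest 22 °C library. PHYA, the phytochrome A photoreceptor, chosen after its values were seen, rose from 249.2 to 546.9 CPM and from 194.0 to 396.7 CPM (1.08, SE 0.21, adjusted p = 9.79e-05) and was called in all 4 left-out fits.

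Genes of iron acquisition by roots were among those that fell most. Of 19 iron uptake and coumarin genes tested 14 fell and 2 rose (median -0.94, with -0.85 in the Col hybrid pair and -1.03 in the pif4 hybrid pair; left-out counts of genes that fell 10, 8, 9 and 10). IRT1, the main iron importer of the root surface, fell from 51.5 to 6.11 CPM in the Col hybrid and from 87.1 to 8.54 CPM in the pif4 hybrid (log2 fold change -3.20, SE 0.11, adjusted p = 4.21e-19). FRO2, the reductase that supplies IRT1, fell from 23.45 to 6.18 CPM and from 42.7 to 6.45 CPM (-2.28, SE 0.14). CYP82C4, which makes the iron-mobilising coumarin sideretin, fell from 13.8 to 0.795 CPM and from 23.48 to 2.18 CPM (-3.76, SE 0.21). The 22 °C level of all 3 genes was higher in the pif4 hybrid, and the 27 °C libraries lay below both. Of 14 iron regulators and ferritins 8 fell and 4 rose. bHLH38, a partner of FIT in switching on IRT1 and FRO2, fell from 6.04 to 1.19 CPM and from 9.82 to 1.18 CPM (-2.62, SE 0.25), and its relative bHLH39 fell by 1.14 on the log2 scale, a call lost in 2 of the 4 left-out fits (-0.61 without the pif4 hybrid at 27 °C and -1.81 without the Col hybrid at 27 °C).

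Of 25 nitrate transport and assimilation genes 10 fell and 3 rose (median -0.20; left-out counts of genes that fell 3, 4, 5 and 11). NRT1.8, which takes nitrate back out of the xylem, fell from 4.78 to 0.217 CPM and from 3.26 to 0.363 CPM (log2 fold change -3.98, SE 0.40, and -3.23 without the Col hybrid at 27 °C). LBD38, a nitrate-induced repressor, fell from 116.5 to 61.4 CPM and from 116.5 to 72.0 CPM. Phosphate starvation genes showed 5 of 19 that rose and 3 that fell, and aquaporins 0 of 23 that rose and 3 that fell. With read-density offsets 6 of the aquaporins rose and 3 fell, and without the Col hybrid at 27 °C 4 rose and 0 fell.

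**Figure D3:**
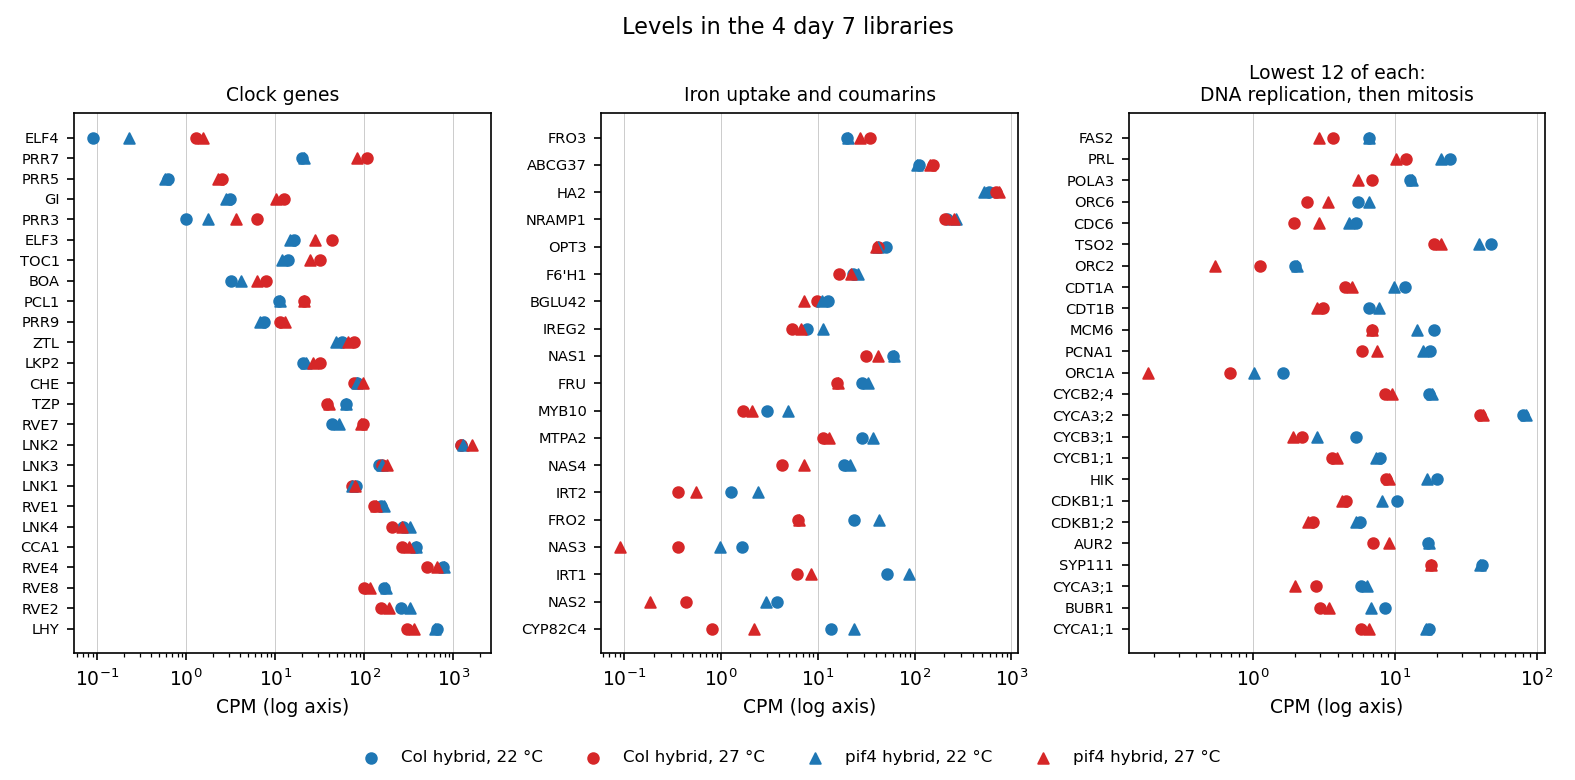
Levels in CPM on log axes in each of the 4 libraries for clock genes, iron uptake and coumarin genes, and the 12 lowest by fold change of the DNA replication list and of the mitosis list, with symbols by hybrid and colours by temperature. PRR7 and GI lie to the right at 27 °C, and IRT1, FRO2, CYP82C4 and the division genes lie to the left.

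Aliphatic glucosinolates are sulphur-rich defence compounds made from methionine, and their biosynthetic genes fell together. Of 25 tested 22 fell and none rose (median -0.78; -1.0 in the Col hybrid pair and -0.55 in the pif4 hybrid pair; left-out counts of genes that fell 8, 12, 19 and 19). MYB29, an activator of the pathway, fell from 28.0 to 7.01 CPM and from 31.6 to 13.0 CPM (log2 fold change -1.65, SE 0.14). FMO GS-OX3, which oxidises the side chain, fell from 41.9 to 10.8 CPM and from 51.9 to 19.3 CPM (-1.69, SE 0.11), and FMO GS-OX1 from 40.5 to 17.56 CPM and from 48.0 to 24.2 CPM. Indolic glucosinolate genes did not move as a group, with 6 of 24 that rose and 4 that fell (median 0.02). PEN3, a transporter of indolic defence compounds, rose from 102.9 to 260.2 CPM and from 95.4 to 194.5 CPM.

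Of 17 flavonoid and anthocyanin genes tested 12 fell and 2 rose (median -0.79; left-out counts of genes that fell 8, 7, 8 and 8). TT4, chalcone synthase at the entry of the pathway, fell from 38.5 to 10.9 CPM and from 30.3 to 14.8 CPM (log2 fold change -1.46, SE 0.13). CHIL, a helper of chalcone synthase, fell from 41.4 to 9.22 CPM and from 39.6 to 11.3 CPM (-2.01, SE 0.12), and FLS1, flavonol synthase, from 8.30 to 1.66 CPM and from 7.20 to 2.18 CPM. All 3 were lower in both 27 °C libraries than in either 22 °C library. The late anthocyanin genes DFR, LDOX and GSTF12, named after their values were seen, fell from between 1.08 and 2.69 CPM at 22 °C to between 0.0723 and 0.182 CPM at 27 °C, on 1 to 3 counts per 27 °C library. These late genes passed the filter only through their 22 °C levels. MYBL2, a repressor of anthocyanin genes named on the same footing, rose from 25.8 to 59.4 CPM and from 27.7 to 44.2 CPM.

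Chlorophyll synthesis genes fell: 19 of 28 tested, with none that rose (median -0.62; -0.79 in the Col hybrid pair and -0.43 in the pif4 hybrid pair; left-out counts of genes that fell 7, 8, 12 and 19). PCB2, a divinyl reductase, fell from 216.3 to 68.6 CPM and from 197.6 to 105.9 CPM (log2 fold change -1.28, SE 0.15). CHLI2, a subunit of magnesium chelatase, fell from 140.6 to 59.4 CPM and from 143.2 to 78.3 CPM (-1.06, SE 0.12), and GSA2, an early enzyme of the pathway, from 187.7 to 83.4 CPM and from 167.2 to 102.1 CPM.

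The antenna, photosystem and Rubisco genes had different ratios in the pairs. Only 5 of 48 tested fell and none rose (median -0.53), and the median ratio was -0.99 in the Col hybrid pair and -0.01 in the pif4 hybrid pair. Their summed level was 99200 CPM at 22 °C and 48770 CPM at 27 °C in the Col hybrid, and 79930 and 83350 CPM in the pif4 hybrid. CAB1, an abundant antenna gene named after its values were seen, did not pass at 7216 and 3061 CPM in the Col hybrid and 5300 and 6001 CPM in the pif4 hybrid. The result turns on single libraries: without the pif4 hybrid at 27 °C all 48 fell (median -1.11), and without the Col hybrid at 27 °C 1 rose and 1 fell (median 0.09). Whether this gap belongs to the hybrids or to the libraries, whose depth was reversed, cannot be told apart. Lhca5, a minor antenna protein of photosystem I, fell in both pairs, from 205.1 to 72.1 CPM and from 197.3 to 98.2 CPM (-1.26, SE 0.14). Of 103 chloroplast-encoded genes 20 rose and 13 fell.

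Most of the listed genes of DNA replication and of mitosis fell. The promoters of 3 replication genes are shown because they hold the binding sequence of E2F factors, which switch on S-phase genes. The letters searched were TTTCCCGC and TTTGGCGC on both strands, and capitals mark the match in the 250 bases before each start, in TAIR10.1.
MCM6 promoter, chr5:18010668-18010917, minus strand: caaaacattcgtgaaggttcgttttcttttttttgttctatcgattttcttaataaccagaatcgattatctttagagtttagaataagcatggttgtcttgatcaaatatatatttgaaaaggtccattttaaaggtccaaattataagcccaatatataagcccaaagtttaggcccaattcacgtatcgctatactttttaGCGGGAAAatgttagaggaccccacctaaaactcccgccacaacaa
MCM5 promoter, chr2:3527501-3527750, minus strand: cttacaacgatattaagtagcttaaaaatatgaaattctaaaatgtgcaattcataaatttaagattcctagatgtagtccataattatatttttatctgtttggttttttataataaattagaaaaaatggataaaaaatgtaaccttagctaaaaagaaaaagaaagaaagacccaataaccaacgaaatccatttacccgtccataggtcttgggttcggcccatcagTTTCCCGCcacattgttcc
POLA3 promoter, chr5:16760596-16760845, plus strand: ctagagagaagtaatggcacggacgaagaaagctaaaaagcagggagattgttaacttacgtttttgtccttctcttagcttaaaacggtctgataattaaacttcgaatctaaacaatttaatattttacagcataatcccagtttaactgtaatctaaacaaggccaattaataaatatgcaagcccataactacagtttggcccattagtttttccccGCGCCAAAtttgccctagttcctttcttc
An E2F site stood in 12 of the 33 promoters of the DNA replication list (36.4%), in 0 of 33 of the mitosis list and in 263 of all promoters (0.958%). The letters TGGGCC, called site II, stood in 18 of 33 replication promoters (54.5%), in 16 of 26 promoters of ribosomal proteins (61.5%) and in 13.7% of all promoters, on either strand.

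Of 33 DNA replication genes tested 25 fell and 2 rose (median -0.69; -0.65 in the Col hybrid pair and -0.68 in the pif4 hybrid pair; left-out counts of genes that fell 11, 10, 12 and 13). TSO2, which supplies deoxynucleotides, fell from 48.1 to 18.8 CPM and from 39.5 to 21.4 CPM (log2 fold change -1.14, SE 0.11). PCNA1, the sliding clamp of the replication fork, fell from 17.7 to 5.89 CPM and from 15.71 to 7.54 CPM (-1.35, SE 0.16), and PCNA2 from 29.8 to 15.3 CPM and from 28.8 to 14.5 CPM. The genes of the printed promoters, chosen after their values were seen, fell as well: the helicase gene MCM6 from 18.9 to 6.97 CPM and from 14.4 to 6.91 CPM, MCM5 from 20.9 to 13.7 CPM and from 19.8 to 11.5 CPM, and the primase gene POLA3 from 12.9 to 6.87 CPM and from 13.3 to 5.54 CPM.

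Of 33 mitosis and cytokinesis genes 25 fell and 2 rose (median -0.82; left-out counts of genes that fell 11, 13, 13 and 17). CYCA1;1, a mitotic cyclin, fell from 17.59 to 5.78 CPM and from 16.6 to 6.54 CPM (log2 fold change -1.49, SE 0.15). SYP111, the syntaxin KNOLLE of the cell plate, fell from 41.0 to 17.9 CPM and from 40.1 to 17.99 CPM (-1.18, SE 0.10), and CYCA3;2 from 79.7 to 39.9 CPM and from 84.7 to 42.1 CPM. The 22 °C levels of these 3 genes were close in the hybrids and above both 27 °C levels. Of 29 D-type cyclins and leaf growth regulators 12 fell and 5 rose (median -0.16; left-out counts of genes that fell 4, 3, 4 and 6). In whole pooled seedlings, fewer dividing cells and less RNA per dividing cell cannot be told apart, and the same holds for every other cell type.

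Of 26 cytosolic ribosomal protein genes 17 fell and none rose (median -0.51; left-out counts of genes that fell 3, 3, 4 and 19). RPL24A fell from 220.6 to 93.5 CPM and from 206.4 to 118.8 CPM. Of 16 stomatal lineage genes 10 fell and 1 rose (median -0.28; left-out counts of genes that fell 3, 2, 5 and 7). POLAR, a polarity protein of dividing stomatal precursors, fell from 22.5 to 8.28 CPM and from 18.6 to 9.54 CPM, and SDD1, a protease that limits stomatal number, from 11.2 to 4.08 CPM and from 8.80 to 3.63 CPM. SPCH, which starts the lineage, fell from 4.96 to 2.2 CPM and from 4.45 to 2.63 CPM, a call lost in 2 of the 4 left-out fits (-0.65, adjusted p = 0.23, without the Col hybrid at 22 °C).

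Genes for breaking down amino acids and those switched on by sugar shortage rose. Of 17 genes for breakdown of branched-chain amino acids and threonine 11 rose and 2 fell (median 0.84; 1.18 in the Col hybrid pair and 0.54 in the pif4 hybrid pair; left-out counts of genes that rose 7, 9, 10 and 10). THA1, threonine aldolase, rose from 1.44 to 63.7 CPM and from 0.571 to 17.3 CPM (log2 fold change 5.26, SE 0.18, adjusted p = 3.3e-19), and was 4.34 without the Col hybrid at 27 °C and 5.95 without the pif4 hybrid at 27 °C. BCAT-2, which starts branched-chain amino acid breakdown, rose from 5.59 to 80.1 CPM and from 6.63 to 27.1 CPM (2.92, SE 0.20), and ranged from 2.19 without the Col hybrid at 22 °C to 3.73 without the pif4 hybrid at 22 °C. MGL, methionine gamma-lyase, rose from 22.7 to 102.8 CPM and from 17.1 to 56.7 CPM. In all 3 the 27 °C level was higher in the Col hybrid than in the pif4 hybrid. BCDH BETA1, counted among those that rose, stood at 2.62 and 2.78 CPM in the Col hybrid and at 36.8 and 53.4 CPM in the pif4 hybrid.

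Of 21 sugar starvation genes and class II trehalose phosphate synthases 12 rose and 2 fell (median 0.44; left-out counts of genes that rose 6, 8, 8 and 11). DIN1, a dark-inducible senescence gene, rose from 156.5 to 648.5 CPM and from 158.3 to 555.8 CPM (log2 fold change 1.93, SE 0.23). DIN10, a raffinose synthase-like gene, rose from 134.1 to 608.1 CPM and from 143.4 to 395.7 CPM. ASN1, asparagine synthetase and a common marker of low sugar, named after its values were seen, rose from 285.2 to 1156 CPM and from 275.4 to 1067 CPM. The 22 °C levels of these genes were nearly alike in the hybrids.

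Jasmonates, hormones of wounding and defence, are switched off by oxidation and sulphation. Of 8 genes of that inactivation tested 4 rose and none fell (median 0.70; left-out counts of genes that rose 3, 4, 4 and 4), while of 29 synthesis and response genes 7 rose and 4 fell (median -0.06). ST2A, a sulphotransferase that inactivates hydroxyjasmonate and a known target of PIFs in shade, rose from 20.5 to 232.3 CPM and from 12.1 to 98.67 CPM (log2 fold change 3.27, SE 0.13, adjusted p = 5.22e-18), and was 3.89 without the pif4 hybrid at 22 °C. JRG21, a jasmonate hydroxylase, rose from 0.541 to 4.3 CPM and from 0.743 to 4.54 CPM (2.75, SE 0.33), and ST2B, a relative of ST2A, from 49.9 to 78.9 CPM and from 37.5 to 71.8 CPM. CYP94B1, which oxidises jasmonoyl-isoleucine, rose from 5.59 to 14.7 CPM and from 6.11 to 9.72 CPM and was lost without the Col hybrid at 22 °C (adjusted p = 0.0614). Abscisic acid genes (8 of 23 rose, 4 fell) and salicylic acid genes (3 of 17 rose, 6 fell) had medians of -0.02 and -0.01. PCC1, a defence gene, fell from 8.75 to 1.3 CPM and from 9.31 to 3.27 CPM (-2.14, and -1.5 without the Col hybrid at 22 °C).

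Some of the strongest changes were outside the gene lists. AT2G15880, annotated as a leucine-rich repeat protein, rose from 1.44 to 75.3 CPM and from 2.46 to 33.6 CPM (log2 fold change 4.59, SE 0.20), and was 3.95 without the Col hybrid at 27 °C and 5.43 without the pif4 hybrid at 22 °C. AT3G20395, a RING/U-box protein, rose from 3.16 to 35.4 CPM and from 5.03 to 32.3 CPM. AT5G44440, a berberine bridge enzyme-like protein, rose from 0.180 to 37.5 CPM in the Col hybrid and from 1.2 to 2.63 CPM in the pif4 hybrid. Its fitted log2 fold change of 4.21 (SE 0.44) rests on the Col hybrid pair: it was 1.74 without the Col hybrid at 22 °C, 2.86 without the Col hybrid at 27 °C and 7.44 without the pif4 hybrid at 22 °C, and DESeq2 did not call it (adjusted p = 0.127). AT1G29090, a cysteine proteinase, fell most of all named genes, from 24.4 to 0.398 CPM and from 8.34 to 0.182 CPM (-5.84, SE 0.28), and was -4.79 without the Col hybrid at 22 °C. Its 45.9-fold fall in the pif4 hybrid (95% counting interval 12.5 to 383) rests on 2 counts at 27 °C. AT1G29090 passed the filter only through its 22 °C levels. ERD9, a glutathione transferase, fell from 55.7 to 7.26 CPM and from 62.9 to 15.5 CPM.

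Markers of organs moved as follows, and their part in the results above was not tested. Of 13 root identity genes tested 4 rose and none fell (median 0.31; left-out counts of genes that rose 0, 1, 2 and 4), with summed levels of 2020 and 1818 CPM in the Col hybrid and 1960 and 2516 CPM in the pif4 hybrid, at 22 and 27 °C. CASP2 and CASP5, which build the Casparian strip of the root endodermis, rose from 7.04 to 13.8 CPM and 6.57 to 9.81 CPM, and from 3.34 to 6.29 CPM and 2.0 to 4.36 CPM. CASP2 lost its call in 2 left-out fits (adjusted p up to 0.165) and CASP5 in 1 (adjusted p = 0.0609), in both cases with the highest p without the Col hybrid at 22 °C. PYK10, a member that did not pass, alone stood at 1912 and 1685 CPM in the Col hybrid and 1868 and 2407 CPM in the pif4 hybrid. The summed root levels are therefore mostly those of this gene. Of the root identity genes tested 30.8% passed, beside 50.1% of all genes tested. The quiescent-centre gene WOX5 was too low to test. Of 9 shoot identity genes 1 rose and 2 fell (median -0.53; -1.13 in the Col hybrid pair and -0.04 in the pif4 hybrid pair), with summed levels of 15540 and 6879 CPM in the Col hybrid and 11810 and 12330 CPM in the pif4 hybrid. STM, a meristem gene, rose from 2.98 to 7.91 CPM and from 4.45 to 5.45 CPM and lost its call without either Col hybrid library (log2 fold change 0.33 and 0.50, against 0.83). STM was the only 1 of the 9 shoot identity genes with a change above 0. The 2 that fell were GL1, from 1.35 to 0.398 CPM and from 1.14 to 0.454 CPM (-1.58, SE 0.44), and SPCH, described above (-0.99, SE 0.24). GL1 rests on 11 and 5 counts at 27 °C and was tested only through its 22 °C levels. Its value was -1.06 without the Col hybrid at 22 °C. Root and shoot markers were both read in all 4 libraries.

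**Figure D4:**
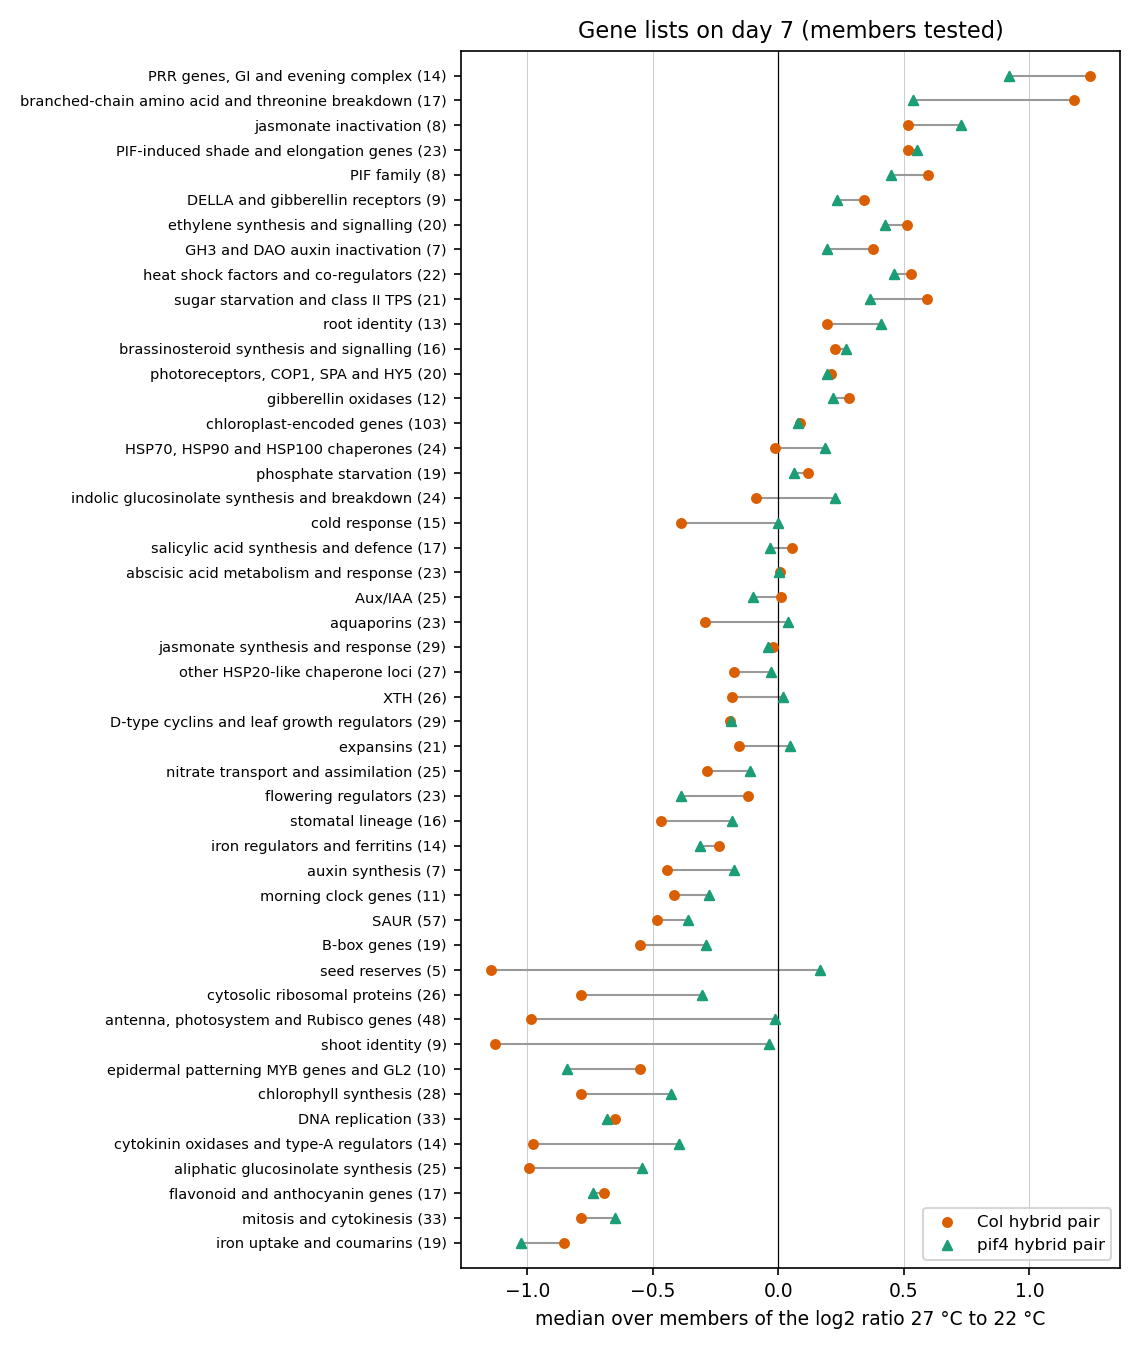
Median over the tested members of each gene list of the log2 ratio of 27 °C to 22 °C, with a circle for the Col hybrid pair, a triangle for the pif4 hybrid pair and the number tested in brackets. The small heat shock list is left out because it lies far to the right. The pairs lie close for DNA replication, PIF-induced genes and flavonoid genes, and far apart for antenna, photosystem and Rubisco genes, shoot identity and seed reserves. The seed reserve medians are the values of 1 gene, ICL, at -1.14 in the Col hybrid pair and 0.17 in the pif4 hybrid pair.

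The same warmth contrast on day 4, in the other 4 libraries, was compared with day 7 in a fit over all 8. The change differed between the ages in 53 of 19829 genes (0.267%), of which 15 were higher and 38 lower on day 7, while 1791 (9.03%) had an unadjusted p under 0.05. Across genes the direction was the same on both days for 76.6%, with a Pearson r of 0.623, or 0.776 over the 13199 whose mean reached 10 CPM. These days share no library, and genes are not independent replicates. In the same fit 2197 genes were called on day 4 and 7092 on day 7, a difference to read beside the depth of the Col hybrid at 22 °C on day 4, which held 1664128 counts.

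AT3G17520, a late embryogenesis abundant (LEA) family gene at the lower end of that difference, stood on day 4 at 1.43 and 46.8 CPM in the Col hybrid and 0.699 and 10.9 CPM in the pif4 hybrid, at 22 and 27 °C. On day 7 it stood at 2.80 and 0.494 CPM, and at 4.05 and 0.529 CPM, so its order by temperature was the opposite (log2 difference -7.69, SE 0.92, adjusted p = 0.00295). At the upper end, EXT10, a cell wall extensin, changed by -1.1 on day 4 and by 1.45 on day 7. On day 4 it stood at 27.2 and 7.603 CPM in the Col hybrid and 19.2 and 11.7 CPM in the pif4 hybrid, and on day 7 at 0.700 and 1.66 CPM and at 0.665 and 2.12 CPM. These calls depend on single libraries. Leaving out a day 4 library gave 0 calls without the Col hybrid at 22 °C, 136 without it at 27 °C, 1 without the pif4 hybrid at 22 °C and 1809 without it at 27 °C. Leaving out a day 7 library gave 34, 93, 33 and 126 calls in the same order.

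Most lists kept their direction between the ages, in medians of the 8-library fit. The PRR, GI and evening complex list was at 0.80 on day 4 and 1.04 on day 7, PIF-induced genes at 0.65 and 0.57, iron uptake at -0.73 and -0.93, aliphatic glucosinolates at -0.66 and -0.78, and DNA replication at -0.53 and -0.68. The mitosis list was at -0.39 and -0.81, and the SAUR list at 0.14 and -0.36. Root identity genes were at -0.36 on day 4 and 0.33 on day 7, and antenna, photosystem and Rubisco genes at -0.98 and -0.44. No test was made of these differences between medians. A difference between the ages was called for 2 members each of the sugar starvation, abscisic acid and seed reserve lists, for 1 member each of the XTH, nitrate and aliphatic glucosinolate lists, and for 0 members of the others.

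**Figure D5:**
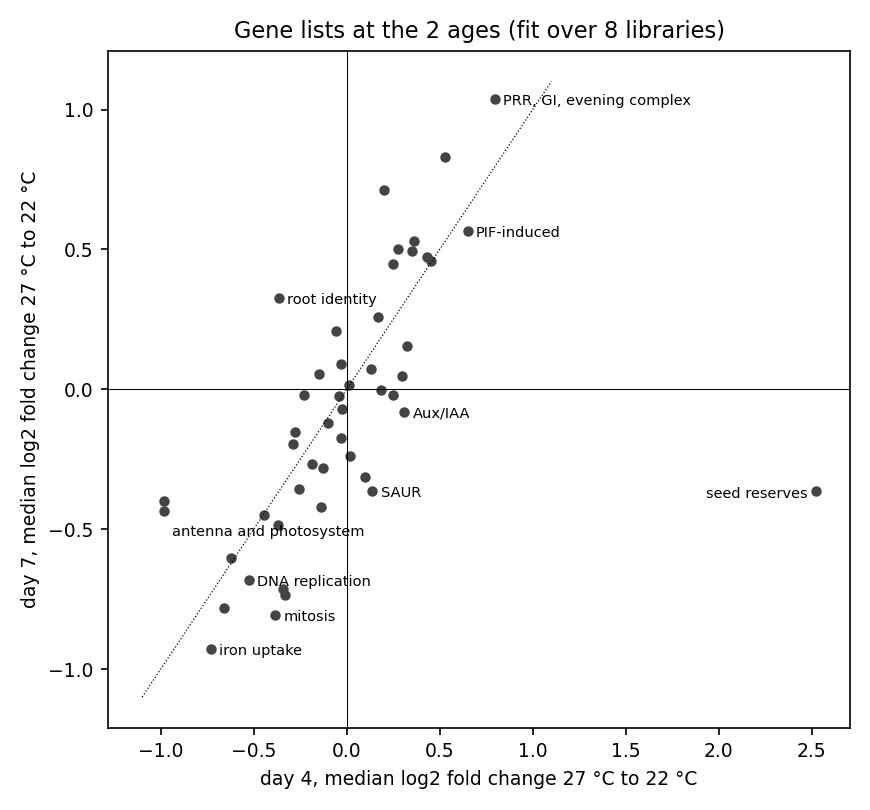
Each point is 1 gene list, placed by the median log2 fold change of its tested members on day 4 (horizontal) and on day 7 (vertical) in the fit over 8 libraries, without the small heat shock list. The dotted line marks equal medians. Most points lie at the lower left or the upper right, and seed reserves lie far to the right, at 2.52 on day 4 and -0.37 on day 7. Only 5 of 16 seed reserve genes were tested (GEA6, PER1, ICL, MLS and PCK1), with no storage protein or oleosin among them. Both medians of that list are the values of ICL.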

How the data were processed

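RNA of whole seedlings was sequenced in 8 libraries, 4 of them from day 7. Per the submitters' processing notes, the pipeline named HTSeq 0.6.1p1, StringTie 1.3.5, FastQC 0.11.5, Picard and HISAT2, on TAIR10; the settings are not given in the sources used here. The authors deposited raw counts per gene, which were used as deposited. The test was edgeR 4.0.16's quasi-likelihood test in R 4.3.3 on the 4 day 7 libraries, with hybrid as block, temperature as term, TMM scaling and 1 residual degree of freedom, which edgeR supplements with a spread shared across genes. Genes needed 0.676 CPM (10 counts at median depth) in at least 2 libraries, and p-values were adjusted by Benjamini-Hochberg at 0.05. A gene below that level in both libraries of 1 temperature was tested only through the other temperature, which fixed its direction. The libraries of a pair share a hybrid genotype, which is where the block comes from. Standard errors were taken as the size of the log2 fold change over the square root of F. Ratios within a pair used a prior count of 2. The comparison of ages used all 8 libraries (3 residual degrees of freedom). Counting intervals (95%) and floors of 3 counts cover counting error only. The 250-base promoters came from RefSeq, assembly TAIR10.1, matched by locus, and 1251 of 1298 list entries matched a counted locus. Genes were named by rule: the 10 that rose and the 10 that fell most with a mean of at least 5 CPM, up to 3 members per list with the smallest p, all members of short lists, 5 genes at each end of the age difference, and preset markers; the rest were named after their values were seen. The members and lists were chosen with earlier results of these data known. Alternatives were other scaling, filters, DESeq2 1.42.0, no block, thinning, and leaving out each library.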

Additional observations from a re-analysis of the deposited data

Results flagged for a closer look

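For 10 genes the change with warmth on day 7 differed from that on day 4 by the test of the difference itself (edgeR quasi-likelihood test over 8 libraries, adjusted p under 0.05). These are the genes at the ends of that difference with a mean of at least 5 CPM. The log2 difference, day 7 minus day 4, was 2.55 for EXT10, 2.47 for the phosphate starvation-responsive gene AT5G03545, 2.27 for EXT6, 2.18 for HRGP1 and 1.89 for the peroxidase gene AT1G05240. It was -7.69 for the LEA gene AT3G17520, -6.89 for LEA18, -6.55 for LEA7, -6.38 for the seed peroxiredoxin PER1 and -6.23 for TSPO, a membrane protein of stress and seeds. In each of these genes the direction of change on day 7 was opposite to that on day 4 in both hybrids. None was called without the Col hybrid at 22 °C on day 4 (adjusted p from 0.0743 to 0.327), the library with 1664128 counts. Without the pif4 hybrid at 22 °C on day 4, HRGP1 alone of the 10 was called (adjusted p = 0.0224). EXT10, EXT6 and HRGP1 were also lost without either 22 °C library of day 7, EXT6 also without the Col hybrid at 27 °C (adjusted p = 0.103), AT1G05240 without that of the Col hybrid (adjusted p = 0.0504) and PER1 without that of the pif4 hybrid (adjusted p = 0.135).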

How the results depend on the processing

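No called gene named by rule turned sign under the alternatives. Of 584 list members called on day 7, 6 turned sign in at least 1: BCDH BETA1, ICL (-0.50, and 0.17 in the pif4 hybrid pair), CYP79F2 (-0.33, and 0.07 there), SAUR66, NPR3 and EXLA2. BCDH BETA1 was at 0.46, but at -0.28 without the Col hybrid at 22 °C and at -2.11 without the pif4 hybrid at 27 °C. On day 7, 5040 genes rose and 5168 fell; the DESeq2 test called 2134 and 2409, and leaving out 1 library gave 1108 to 3200 that rose and 1184 to 3168 that fell, to be read against 3590 and 3692 in the same fit on all 8 libraries. With another scaling, filter, thinning or the 8-library fit the counts stayed within 1.5 times, from 3590 to 5129 that rose and from 3692 to 5220 that fell. Without the replicate block, which pairs libraries by hybrid, 4137 rose and 4270 fell. Of 158 named genes called, DESeq2 did not call 25, the 8-library fit 4, the fit without the block 1, and the left-out fits 37, 46, 34 and 8; the value moved by more than 1 SD of the paired ratios for 8 in the Col hybrid pair alone and for 20 in the pif4 hybrid pair alone. For the difference between ages, 53 genes were called; a separate hybrid effect at each age gave 139, no filter on low counts 294, and leaving out 1 library 0 to 1809. With 1 library per condition, depth limits genes near 0.108 to 0.273 CPM.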
